A study of Mus musculus with 36 samples.

Results

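The sterol and lipid synthesis genes are a list of 32 genes chosen by name: regulators, enzymes that build cholesterol, enzymes that build, lengthen and desaturate fatty acids, a sterol carrier and a phosphatidate phosphatase. Earlier results of these data were known when the list was chosen, so its shares beside those of all genes are descriptive. One probe set was taken per gene, the one with the highest mean over all 36 arrays, and it was used where its log2 value was above 4 in at least 3 arrays. By this rule 31 of the 32 were tested, among 9549 genes in all; Acat2 had no probe set with a single gene symbol here and was not analysed here. RNA was labelled with 4-thiouridine (4sU), a uridine analogue taken up into new transcripts, so each array reports RNA made in a set window. The cells were NIH-3T3, an established line of mouse embryo fibroblasts, given fresh medium with mock, IFN alpha at 100 U/ml or IFN gamma at 100 U/ml. The 3 treatments were crossed with 4 windows counted from that medium change. Labelling ran from 0 to 30, 30 to 60 or 150 to 180 min at 500 µM 4sU, or from 0 to 60 min at 200 µM, and each of the 12 groups had 3 arrays. All groups, mock included, thus shared the medium change and the 4sU. The labels number the arrays 1 to 3 without saying that they are separate cultures, so p-values measure only the spread between these arrays, which may be technical.

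Cells make cholesterol from acetyl-CoA through mevalonate, isoprenoids, squalene and lanosterol. When membranes of the endoplasmic reticulum are low in sterol, SREBP proteins (from Srebf1 and Srebf2) are carried to the Golgi, cut and sent to the nucleus, where they switch on genes of sterol and fatty acid synthesis; INSIG proteins hold them back when sterol is plentiful. Type I and type II interferons are known to lower sterol synthesis in macrophages, and fibroblasts such as NIH-3T3 run the same pathway to build membrane.

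The array-wide checks bear on several results below. Irf1, an early interferon target, rose in every window, by 1.17 to 4.08 (log2) with IFN alpha and by 4.73 to 5.86 with IFN gamma. All 10 fibroblast markers passed the filter, with a median log2 of 11.28. Of 8 adipocyte markers measured, 2 passed (Lpl, and Fabp4 in 6 arrays), while Pparg and Adipoq averaged 2.63 and 2.14. Among 4 hepatocyte markers 0 passed, nor did any of 5 epithelial markers, and Cd14 was the sole one of 7 macrophage markers to do so. The 30-60 min arrays stood apart: their median over tested genes was 6.48 to 6.58, against 6.94 to 7.23 in the other windows, and the bioC hybridisation control averaged 9.33 there, 8.98 at 0-60 min, 7.54 at 0-30 min and 7.21 at 150-180 min. Within 30-60 min bioC differed by array number, from 10.56 to 10.69 in array 1 of each treatment and from 7.60 to 7.97 in array 3. Arrays of a group varied least at 0-30 and 150-180 min (median SD over genes 0.143 and 0.146) and more at 30-60 and 0-60 min (0.214 and 0.281). Mock 0-60 min array 1 correlated at 0.91 with its mates, and its 3′ minus 5′ Gapdh difference was 2.67 against -0.31 and -0.30 in them. The interferon results over 0-60 min are also given without it.

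Promoters were read from RefSeq (GRCm38.p6), 250 bases upstream of the start, for the 25 members in the table (4 of them with several starts, and 7 of the 32 without an entry), because Ebp rose with IFN gamma while other called members fell. Motifs searched on both strands were a sterol regulatory element, TCACNCCAC, the CCAAT box and a gamma-activated site, TTCNNNGAA, which reads the same on either strand. Matches of different motifs did not overlap. The CCAAT box was found in 19 of the 25 promoters (76.0%), against 37.5% of the 27025 genes in the table. A sterol regulatory element with these letters was found in 1 of 25, Hmgcs1 (137 bases before the start), against 1.22% of genes, and a gamma-activated site in 1 of 25, Ebp (85 bases before it), against 8.13%. A match is a description of letters, not a bound site. The 6 promoters below are those of Ebp (chrX:8193513-8193762, minus strand), the one member that rose with IFN gamma, Hmgcs1 (chr13:119690101-119690350, plus strand), Hsd17b7 (chr1:169969206-169969455, minus strand) and Lss (chr10:76531355-76531604, plus strand), and of Lpin1 (chr12:16610967-16611216, minus strand) and Elovl6 (chr3:129532136-129532385, plus strand), both lower with IFN gamma and without a match in this window. Each runs 5′ to 3′ toward the start, and capitals mark motif matches.
Ebp: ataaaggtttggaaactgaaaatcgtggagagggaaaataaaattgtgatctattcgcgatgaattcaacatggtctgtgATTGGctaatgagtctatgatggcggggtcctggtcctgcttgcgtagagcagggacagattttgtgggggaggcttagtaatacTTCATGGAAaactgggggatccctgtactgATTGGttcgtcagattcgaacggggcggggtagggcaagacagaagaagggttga
Hmgcs1: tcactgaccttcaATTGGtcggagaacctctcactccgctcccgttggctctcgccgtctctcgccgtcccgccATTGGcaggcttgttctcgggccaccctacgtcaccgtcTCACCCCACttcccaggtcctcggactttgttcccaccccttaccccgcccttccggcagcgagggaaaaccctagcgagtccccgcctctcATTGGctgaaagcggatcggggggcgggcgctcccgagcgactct
Hsd17b7: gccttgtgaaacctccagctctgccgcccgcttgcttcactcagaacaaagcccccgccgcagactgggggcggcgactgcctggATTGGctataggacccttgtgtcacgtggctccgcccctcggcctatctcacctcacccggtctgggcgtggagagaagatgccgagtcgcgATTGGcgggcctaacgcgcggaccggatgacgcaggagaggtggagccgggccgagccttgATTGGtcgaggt
Lss: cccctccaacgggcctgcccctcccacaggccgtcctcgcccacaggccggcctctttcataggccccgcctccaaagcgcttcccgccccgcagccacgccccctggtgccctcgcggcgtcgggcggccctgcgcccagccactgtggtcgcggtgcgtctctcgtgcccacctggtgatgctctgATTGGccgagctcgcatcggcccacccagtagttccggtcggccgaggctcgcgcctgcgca
Lpin1: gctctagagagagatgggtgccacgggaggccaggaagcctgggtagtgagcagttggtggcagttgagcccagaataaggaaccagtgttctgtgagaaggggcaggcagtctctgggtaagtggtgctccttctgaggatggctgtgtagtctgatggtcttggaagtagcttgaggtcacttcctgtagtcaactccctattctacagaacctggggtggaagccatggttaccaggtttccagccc
Elovl6: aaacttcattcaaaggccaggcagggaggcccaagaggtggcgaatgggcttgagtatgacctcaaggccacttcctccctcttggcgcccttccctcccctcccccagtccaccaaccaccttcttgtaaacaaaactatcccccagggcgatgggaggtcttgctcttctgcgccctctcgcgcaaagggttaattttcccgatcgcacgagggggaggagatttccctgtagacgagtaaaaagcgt

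In mock-treated cells nearly the whole list was lower in RNA made at 30-60 min than in RNA made at 0-30 min. Limma called 28 of 31 members lower and 0 higher, where 51.8% of all tested genes were lower and 9.05% higher (a call is a Benjamini-Hochberg adjusted p under 0.05 over all 9549 genes). The median difference was -1.22 over the members and -0.52 over all genes. Every one of the 6 mevalonate enzymes, 10 of 11 squalene and sterol enzymes, all 4 fatty acid enzymes, all 4 desaturases, Stard4 and Lpin1 were lower, and 2 of 4 regulators. From 30-60 to 150-180 min 28 of 31 members were higher and 0 lower (all genes 53.4% and 10.7%), with a median of 0.96 against 0.55.

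Mvk, the kinase that phosphorylates mevalonate, read 7.09, 6.89 and 6.55 in the mock arrays at 0-30 min, 3.68, 4.09 and 4.53 at 30-60 min, and 6.79, 6.67 and 6.51 at 150-180 min. All 3 middle arrays lay far below the other 6 and close to the filter level of 4, so the fall ends near background. The first difference was -2.74 ± 0.37 (SE of the fit, n = 3 arrays per group here and throughout, adjusted p = 2.8e-07). Mvd, which decarboxylates mevalonate diphosphate, went from 7.65, 7.03 and 6.92 through 4.23, 5.08 and 4.69 to 7.33, 7.23 and 7.08. It fell by 2.53 ± 0.29 and then rose by 2.55. Fdps, the enzyme that makes farnesyl diphosphate, read 10.27, 9.76 and 9.84, then 8.70, 7.89 and 8.01, then 10.48, 10.45 and 10.02, a fall of -1.75 ± 0.30 without overlap.

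The sterol enzymes had the same shape. Ebp, the sterol isomerase that moves a ring double bond, read 6.92, 6.63 and 6.50, then 4.68, 4.14 and 4.36, then 6.74, 6.68 and 6.67 (first difference -2.29 ± 0.31). Nsdhl, which helps remove methyl groups from lanosterol, read 10.42, 10.06 and 9.99, then 8.57, 8.25 and 8.23, then 10.49, 10.41 and 10.44 (-1.81 ± 0.17, adjusted p = 3.5e-10). Tm7sf2, a sterol reductase, dropped from 5.69, 5.34 and 5.32 to 3.31, 2.98 and 3.45, under the filter level of 4, and returned to 4.83, 4.86 and 5.32, so its fall of -2.20 ± 0.19 ends in background. In the desaturases the largest return was that of Scd1, which puts the first double bond into stearate, from 8.77, 8.78 and 8.91 at 30-60 min to 10.72, 10.59 and 10.68 at 150-180 min, 1.84 ± 0.14 higher.

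Not every member moved this much. Insig1, a retention factor for the SREBP escort, read 11.66, 11.54 and 11.82 at 0-30 min and 11.22, 11.36 and 11.53 at 30-60 min, a difference of -0.30 ± 0.14 that missed the threshold (adjusted p = 0.056). Srebf2 (-0.34 ± 0.32, adjusted p = 0.36) and Msmo1, a lanosterol-pathway methyl oxidase (-0.39 ± 0.19, adjusted p = 0.081), missed it too. Hmgcs1, which makes HMG-CoA, fell by 0.38 ± 0.12 (adjusted p = 0.0056). The 30-60 min shift of the tested-gene median coincided with these falls. The bioC reading was 10.56, 9.55 and 7.97 in mock arrays 1 to 3 of that window. In the same arrays Nsdhl read 8.57, 8.25 and 8.23, and Mvk 3.68, 4.09 and 4.53. The part of either in the falls was not tested. Quantile normalisation, which gives every array the same distribution, left 27 lower and then 27 higher members. It was run over all probe sets, whose mock medians were already alike (3.16 to 3.19 at 30-60 min and 3.15 to 3.16 at 0-30 min). It therefore cannot decide what part the tested-gene shift had.

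Between the first and the last 30 min window the mock levels of most members were close: 2 of 31 were lower and 0 higher, where 4.85% of all genes were lower and 4.85% higher. Lpin1, which makes diacylglycerol from phosphatidate, read 7.56, 7.60 and 7.57 at 0-30 min and 6.93, 6.95 and 6.96 at 150-180 min (-0.63 ± 0.20, adjusted p = 0.041). Fasn, fatty acid synthase, read 11.03, 10.74 and 10.88 and then 10.49, 10.39 and 10.42 (-0.45 ± 0.12, adjusted p = 0.015). The arrays of the 2 windows were separate for both genes. Insig2, a second SREBP retention factor, read 6.89, 7.12 and 6.91 and then 7.55, 7.49 and 7.26, apart but not called (0.46 ± 0.19, adjusted p = 0.13). Scd1 read 10.25, 10.32 and 10.30 at 0-30 min, below its 150-180 min arrays (0.37 ± 0.14, adjusted p = 0.1), and was not called either. For Srebf1, with 8.02, 7.67 and 7.75 against 7.64, 7.42 and 7.01, each last-window array was below each first-window array (-0.46 ± 0.31, adjusted p = 0.42). Tm7sf2 gave -0.44 ± 0.19 (adjusted p = 0.14). Leaving out any 1 of these 6 arrays left 0 or 1 member called, and without mock 0-60 min array 1 in the fit the count was 4.

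**Figure D1:**
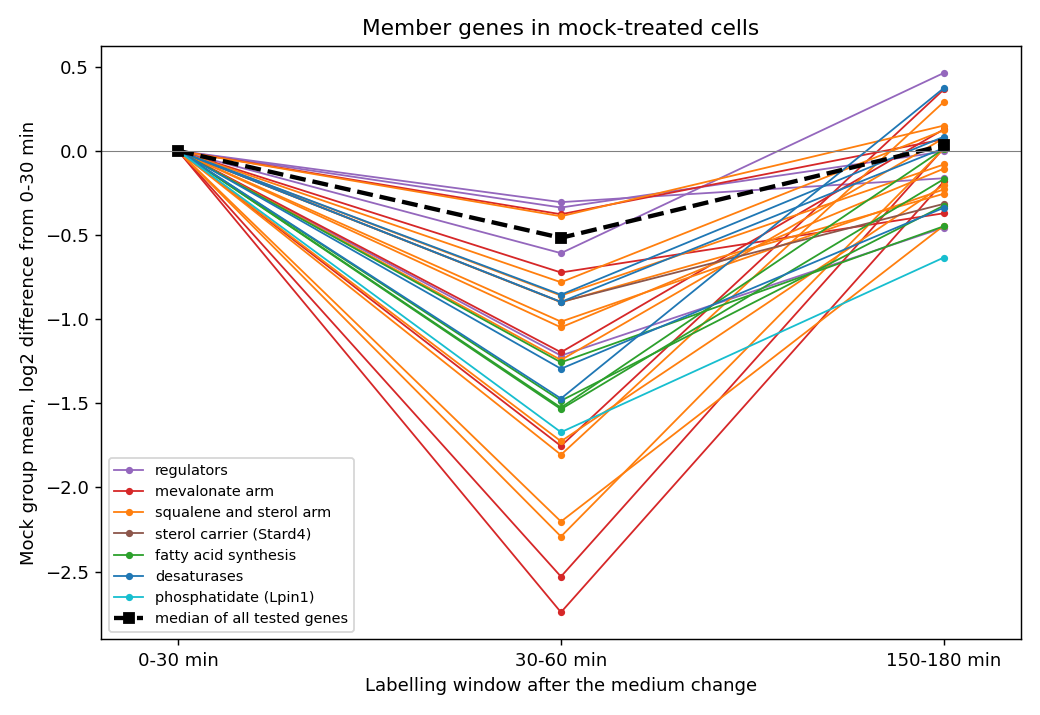
Mock group means of the 31 members as log2 difference from 0-30 min (y axis) in the 3 windows of 30 min (x axis), coloured by role, with the median of all tested genes dashed. The members dip to between -0.30 and -2.74 at 30-60 min, below the dashed median of -0.52 for most, and return to between -0.63 and 0.46 at 150-180 min.

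IFN gamma was compared with mock in each window to ask which members an interferon moves and when. Over 0-60 min, 8 of 31 members fell and 1 rose, where 2.9% of all tested genes were lower and 3.83% higher. The members' median was -0.33 against -0.05 over all genes, and 28 of 31 differences lay below 0 (all genes 56.1%). By role, 1 of 6 mevalonate enzymes, 4 of 11 squalene and sterol enzymes, 2 of 4 fatty acid enzymes and Lpin1 fell, Ebp rose, and 0 of 4 regulators and 0 of 4 desaturases passed the test.

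Lpin1 had the largest fall. Its 3 mock arrays read 8.24, 7.92 and 7.57, those with IFN alpha 7.66, 7.76 and 7.42, and those with IFN gamma 6.82, 6.94 and 6.20. Every IFN gamma array was below every other array, a 2.39-fold lower level (-1.26 ± 0.20, adjusted p = 4.9e-05), and a second Lpin1 probe set fell too (-0.87 ± 0.20, adjusted p = 0.005). Elovl6, which lengthens palmitate, read 10.03, 10.18 and 9.96 with mock, 10.20, 10.18 and 9.84 with IFN alpha and 9.39, 9.19 and 9.09 with IFN gamma. The IFN gamma arrays alone stood apart, while mock and IFN alpha overlapped, and the level was 1.78-fold lower with IFN gamma than mock (-0.83 ± 0.12, adjusted p = 4.2e-06). One of its other probe sets was called (-0.94 ± 0.20, adjusted p = 0.0032) and one was not (-0.57 ± 0.42). Acaca, acetyl-CoA carboxylase, read 9.30, 8.32 and 8.28 with mock and 8.05, 8.10 and 7.92 with IFN gamma, apart chiefly through mock array 1 (-0.61 ± 0.18, adjusted p = 0.039). No member called lower over 0-60 min was called at 0-30 or 30-60 min, which span the same hour. Elovl6 means were 10.72 with mock and 10.69 with IFN gamma at 0-30 min, then 9.18 and 9.32 at 30-60 min. Those of Lpin1 were 7.58 and 7.93, then 5.91 and 5.69. Dhcr7 was lower with IFN gamma at 30-60 min (5.10 and 4.33), though not called.

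In the sterol arm Hsd17b7, a sterol ketoreductase, read 10.24, 9.97 and 9.91 with mock and 9.22, 9.55 and 9.33 with IFN gamma (-0.68 ± 0.13, adjusted p = 0.00068). Its 3 other probe sets gave -0.26, -0.15 and 0.40, and none of them was called. Fdft1, squalene synthase, read 11.75, 11.45 and 11.19 against 10.80, 11.07 and 10.78 (-0.58 ± 0.14, adjusted p = 0.006). Its second probe set gave -0.49 ± 0.17 (adjusted p = 0.09).

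Lss, which closes the lanosterol rings, read 10.49, 9.16 and 9.30 against 8.78, 8.71 and 8.87 (-0.87 ± 0.20, adjusted p = 0.0053), and its second probe set -0.35 ± 0.19 (adjusted p = 0.3). Dhcr7, the last reductase before cholesterol, read 6.86, 6.15 and 5.61 against 5.41, 5.25 and 5.00 (-0.99 ± 0.25, adjusted p = 0.0099). Pmvk, the phosphomevalonate kinase, read 9.03, 8.02 and 8.23 against 7.56, 7.39 and 7.69 (-0.88 ± 0.19, adjusted p = 0.003). In each of these 3 genes mock array 1 was the highest array by a clear step, while all mock arrays still lay above all IFN gamma arrays. Mvk did not pass (-0.73 ± 0.37): its mock arrays ran from 4.23 to 6.69 and overlapped those with IFN gamma, and without mock array 1 the difference was -0.09.

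Without mock 0-60 min array 1 the count was 6 lower and 1 higher, where 1.85% of all genes were lower and 3.19% higher. Lpin1 (-1.09), Elovl6 (-0.85), Hsd17b7 (-0.58) and Pmvk (-0.57) kept the call, as did Ebp, and Idi1, the isopentenyl isomerase (-0.42), and Sc5d, the sterol desaturase (-0.39), came in. Lss (-0.45, adjusted p = 0.073), Fdft1 (-0.43, adjusted p = 0.063), Dhcr7 (-0.66, adjusted p = 0.13) and Acaca (-0.28, adjusted p = 0.41) lost it. Acaca also lost it without any 1 of the IFN gamma arrays, and Dhcr7 without IFN gamma array 3. With the array number as a block the count was 16 lower and 1 higher (all genes 11.8% lower and 8.59% higher). Among them were the desaturases Scd1 (-0.33, adjusted p = 0.0079), Fads1 (-0.42, adjusted p = 0.012) and Fads2 (-0.43, adjusted p = 0.046). In the unblocked fit without that mock array Scd1 gave -0.28 (adjusted p = 0.42), Fads1 -0.11 (adjusted p = 0.75) and Fads2 -0.31 (adjusted p = 0.6). The blocked count was 15 lower and 1 higher when that mock array was left out too (8.49% and 6.36%). With the 9 arrays of this window alone, 1 member, Elovl6, was called lower (adjusted p = 0.044), where 0.147% of all genes were lower and 1.11% higher, and Lpin1 stood at 0.053 and Ebp at 0.13.

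Ebp went the other way. At 30-60 min its mock arrays read 4.68, 4.14 and 4.36, the IFN alpha arrays 5.17, 3.52 and 4.80, and the IFN gamma arrays 6.39, 5.70 and 5.92. The IFN gamma arrays were above all others, 3.06-fold over a mock level close to the filter (1.62 ± 0.31, adjusted p = 0.00041). Over 0-60 min the IFN gamma arrays were again above all others, with 4.65, 5.94 and 5.56 in mock and 6.63, 7.38 and 6.62 with IFN gamma (1.50 ± 0.31, adjusted p = 0.0013), and without mock array 1 the difference was 1.13. At 0-30 min the arrays read 6.92, 6.63 and 6.50 against 7.20, 7.07 and 7.004, and at 150-180 min 6.74, 6.68 and 6.67 against 7.18, 6.95 and 6.96. There too every IFN gamma array was above every mock array, but the differences, 0.41 and 0.33, did not pass the test. Ebp has no other probe set on the array.

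**Figure D2:**
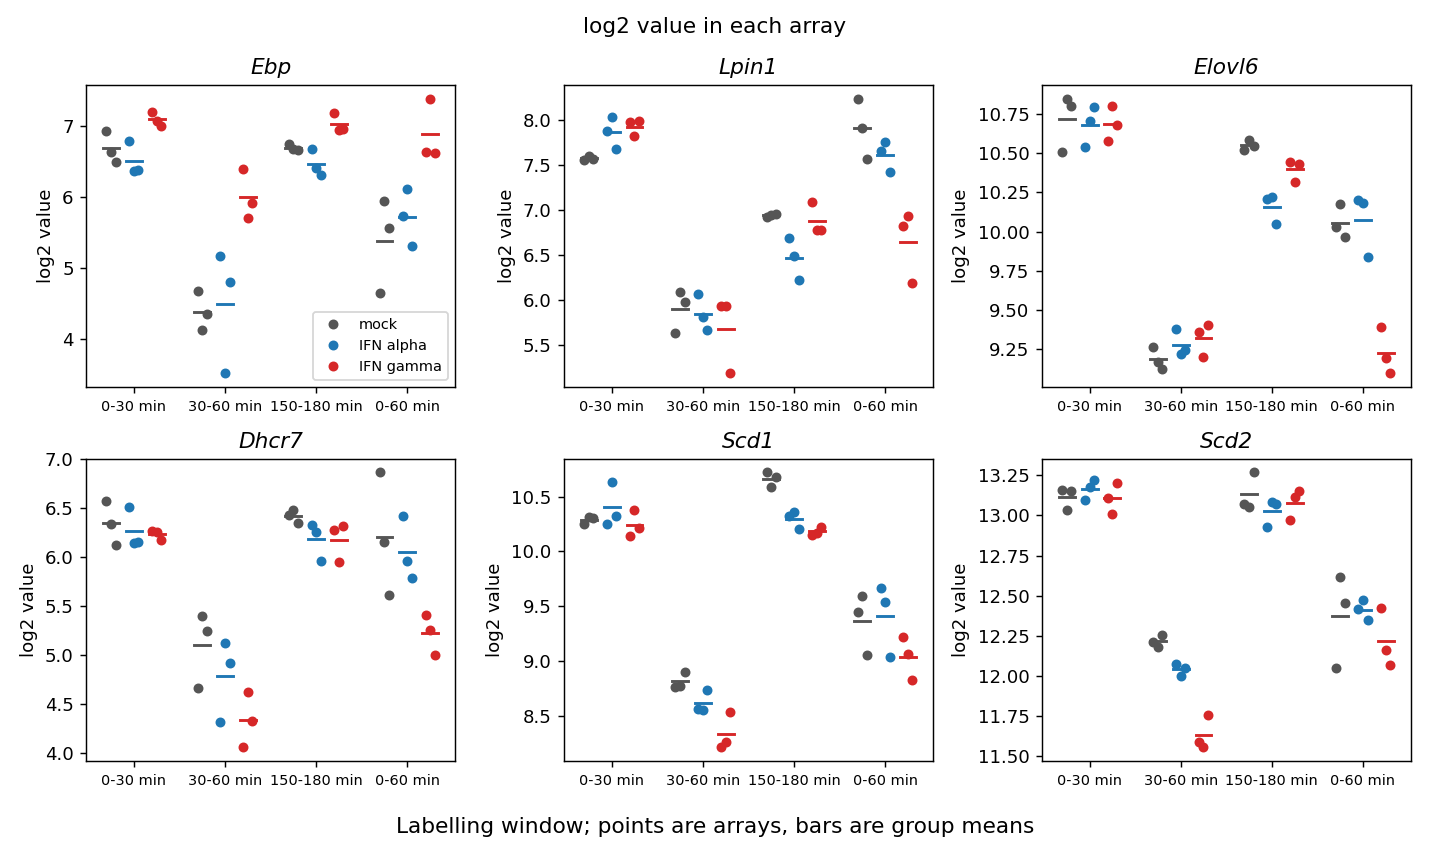
log2 value (y axis) in each array for 6 members, by labelling window (x axis) and treatment; points are arrays and bars are group means. Ebp is higher with IFN gamma than mock at 30-60 and 0-60 min, Lpin1, Elovl6 and Dhcr7 are lower with it at 0-60 min, and Scd1 and Scd2 are lower with it at 30-60 min.

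At 30-60 min 3 members fell with IFN gamma and Ebp alone rose, where 2.06% of all genes were lower and 3.82% higher. Scd2, a stearoyl-CoA desaturase, read 12.21, 12.18 and 12.26 with mock, 12.07, 12.002 and 12.05 with IFN alpha and 11.59, 11.56 and 11.76 with IFN gamma. The 3 groups did not overlap, and the IFN gamma level was 1.5-fold lower than mock (-0.58 ± 0.11, adjusted p = 0.00037). Its other probe sets gave -0.90 ± 0.58 and -1.44 ± 0.85 and were not called. Scd1, a near copy of Scd2 whose probes may share signal with it, read 8.77, 8.78 and 8.91 against 8.22, 8.26 and 8.54 (-0.48 ± 0.14, adjusted p = 0.042). Sqle, the monooxygenase that opens the sterol branch by oxidising squalene, read 10.28, 10.38 and 10.36 against 9.84, 9.85 and 9.92 (-0.47 ± 0.14, adjusted p = 0.03).

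Over the whole list 27 of 31 differences lay below 0 (all genes 59.4%), with a median of -0.22 against -0.05 over all genes. With the array number as a block 9 members fell and 1 rose (all genes 6.41% and 5.75%): Dhcr7 (-0.77, adjusted p = 0.00076), Msmo1 (-0.51), Fads2, a fatty acid desaturase (-0.50), Fasn (-0.34), Hmgcs1 (-0.34) and Acly, ATP citrate lyase (-0.32), joined Scd2, Scd1 and Sqle. Without mock 0-60 min array 1 in the unblocked fit the count was 7 lower and 1 higher (all genes 3.6% and 4.6%). Scd1 lost its call in 5 of the 6 fits that left out an array of these groups, the exception being IFN gamma array 3, and Sqle in 5 of 6, the exception being mock array 1.

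Among members not called at 30-60 min, the IFN gamma arrays of some lay apart from mock. Sc5d read 8.47, 8.36 and 8.40 with mock, 8.53, 8.55 and 8.52 with IFN alpha and 8.12, 7.98 and 8.05 with IFN gamma, a difference of -0.36 from mock. Fads1, a desaturase of polyunsaturated fatty acids, read 8.76, 8.90 and 8.79 with mock, 8.57, 8.47 and 8.53 with IFN alpha and 8.40, 8.47 and 8.55 with IFN gamma, below mock by a similar step with both interferons (-0.29 and -0.34). Msmo1 read 11.05, 10.94 and 11.13 with mock and 10.51, 10.44 and 10.64 with IFN gamma. Hmgcs1 read 12.34, 12.67 and 12.53 against 11.87, 12.43 and 12.22, so its groups overlapped, although each IFN gamma array lay below the mock array of the same number. Stard4, which moves cholesterol between membranes, differed from mock by -0.11 with IFN gamma and 0.19 with IFN alpha, neither called.

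At 150-180 min Scd1 alone was called with IFN gamma, where 1.54% of all genes were lower and 4.37% higher. Its arrays read 10.72, 10.59 and 10.68 with mock, 10.32, 10.36 and 10.21 with IFN alpha and 10.15, 10.17 and 10.22 with IFN gamma (-0.48 ± 0.14, adjusted p = 0.04). Both interferon groups lay below mock and overlapped each other. The call was lost without any 1 of the 6 mock and IFN gamma arrays, at adjusted p of 0.072 to 0.17. At 0-30 min limma called 0 of 31 members with IFN gamma (0.796% of all genes). An unadjusted p under 0.05 was reached by 0 members and 222 of all 9549 genes, and the members' differences ran from -0.15 to 0.41.

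**Figure D3:**
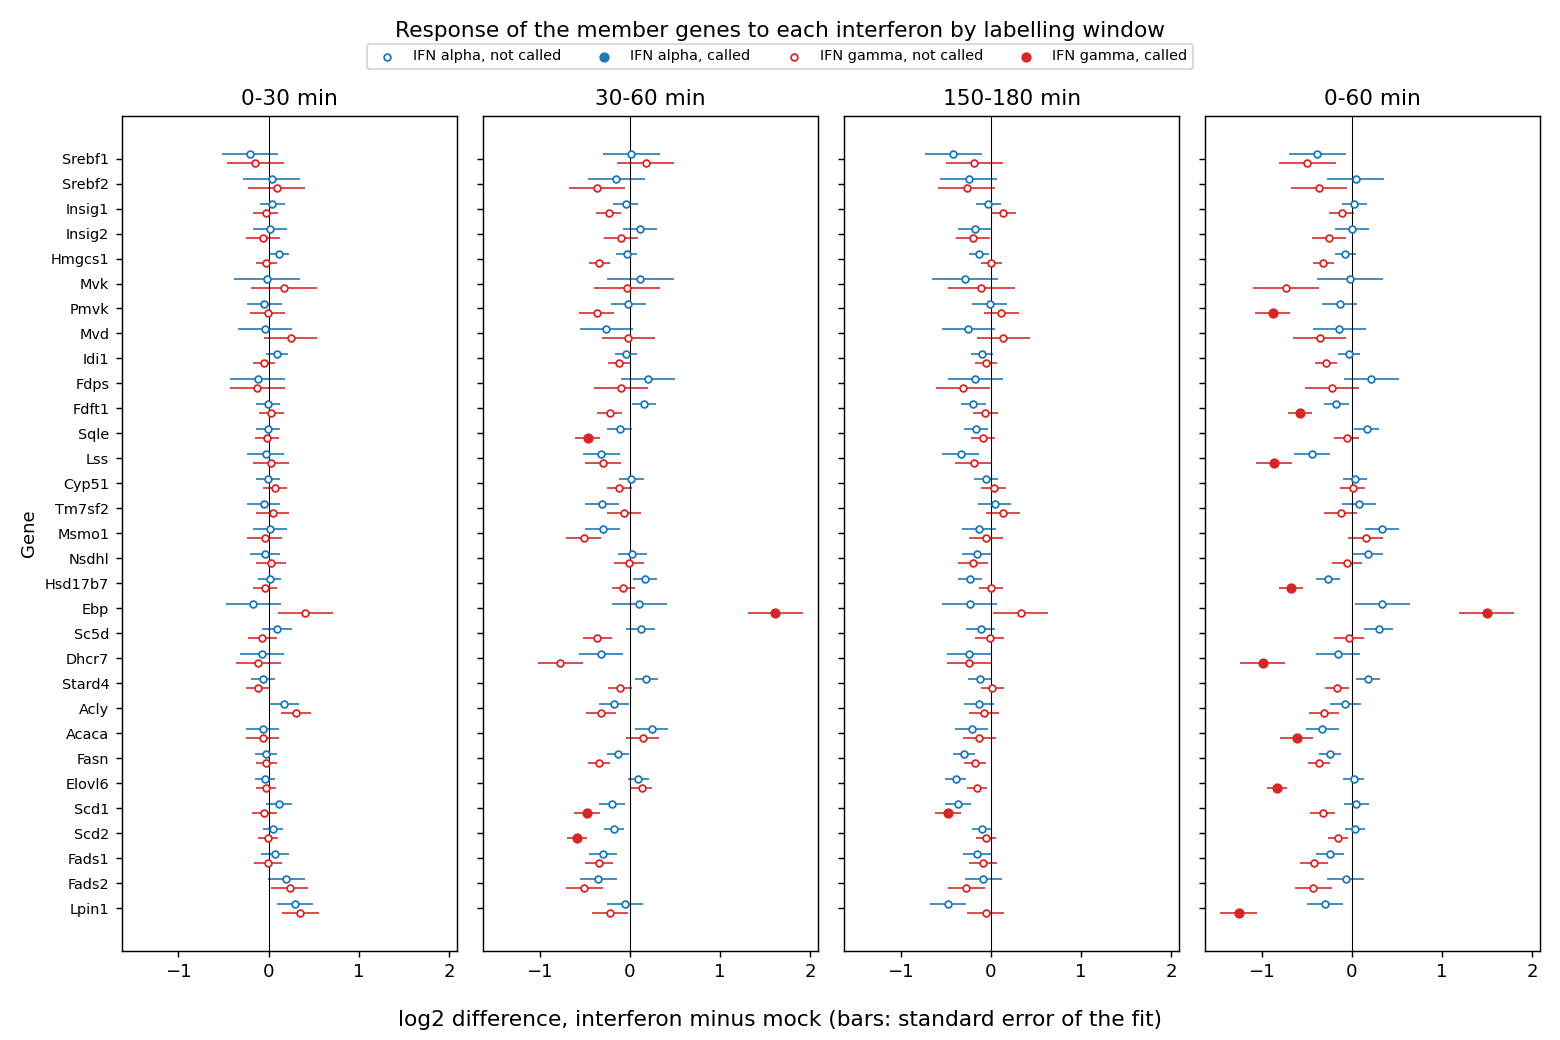
log2 difference from mock (x axis) of each member (y axis) with IFN alpha (blue) and IFN gamma (red) in the 4 windows; bars are standard errors of the fit and filled points are called. At 0-30 min all points are open, and the filled ones are 4 at 30-60 min, 1 at 150-180 min and 9 at 0-60 min, all IFN gamma.

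With IFN alpha limma called 0 of 31 members in any window, where 0.377% of all genes were called at 0-30 min, 2.59% at 30-60 min, 2.69% at 150-180 min and 1.98% at 0-60 min. At an unadjusted p under 0.05 the members were 0, 0, 4 and 2 in that order, all lower. Of all 9549 genes 137, 856, 764 and 1341 were under it, of which 36, 369, 366 and 341 were lower. Over 0-60 min the count was 0 without mock array 1, 2 without mock array 2 and 1 without mock array 3. The medians were 0.00, -0.04, -0.17 and -0.02, against -0.03, -0.04, -0.10 and 0.03 over all genes. At 150-180 min 30 of 31 members were below 0, as were 70.2% of all genes. Elovl6 read 10.52, 10.58 and 10.55 with mock, 10.21, 10.22 and 10.05 with IFN alpha, and 10.45, 10.32 and 10.43 with IFN gamma, so the 3 groups were separate with IFN alpha lowest (-0.39 ± 0.12 from mock, adjusted p = 0.064). With the 9 arrays of that window alone 4 members were called lower, Elovl6, Scd1, Lss and Fasn, where 0.67% of all genes were lower and 3.43% higher.

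In the unblocked fit the regulators did not pass the test with either interferon in any window. Srebf1 differed from mock by between -0.49 ± 0.31 (IFN gamma, 0-60 min) and 0.18 ± 0.31 (IFN gamma, 30-60 min), and Srebf2 by between -0.36 and 0.09. Its lowest value over 0-60 min, with IFN gamma, rests on mock arrays that read 7.95, 6.37 and 5.94, and without mock array 1 it turned to 0.23. Insig1 differed by between -0.23 and 0.14, and Insig2 by between -0.26 and 0.11. Srebf1 arrays of 1 group spread widely and by array number, with 5.93, 7.17 and 6.67 in mock and 6.25, 7.15 and 6.92 with IFN gamma at 30-60 min. With the array number as a block its IFN gamma difference over 0-60 min was called (-0.49 ± 0.17, adjusted p = 0.038), and in the unblocked fit without mock 0-60 min array 1 it was -0.16 (adjusted p = 0.9). Cyp51, the lanosterol demethylase, had differences between -0.12 and 0.07 in all 8 comparisons with mock.

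IFN alpha and IFN gamma were also compared directly. Both are set against the same mock arrays above. The difference itself does not use those arrays, but they enter the fit's estimate of spread and so its p-values. At 30-60 min Ebp was lower with IFN alpha (-1.51 ± 0.31, adjusted p = 0.001) and Scd2 higher (0.41 ± 0.11, adjusted p = 0.018), where 2.72% of all genes were lower and 2.97% higher. Over 0-60 min Elovl6 (0.85, adjusted p = 4.2e-06), Lpin1 (0.96, adjusted p = 0.0023), Pmvk (0.74, adjusted p = 0.019) and Dhcr7 (0.84, adjusted p = 0.049) were higher with IFN alpha and Ebp lower (-1.16, adjusted p = 0.021), against 2.36% of all genes higher and 1.65% lower. With the array number as a block the counts were 6 higher and 1 lower at 30-60 min (all genes 5.75% and 4.58%) and 10 higher and 1 lower over 0-60 min (6.47% and 3.08%). At 30-60 min 1 member was called without IFN alpha array 1 or 3 or IFN gamma array 1, and 4 without mock 0-60 min array 1 in the fit. Over 0-60 min 2 were called without IFN alpha array 1, 3 without IFN gamma array 1 or 2, and 10 without mock array 1. At 0-30 and 150-180 min 0 members were called (0.712% and 4.69% of all genes), with 0 and 2 at an unadjusted p under 0.05. Of all 9549 genes 232 and 897 were under it.

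Whether a response changed between successive 30 min windows was tested as a difference of differences. Limma called 0 of 31 members for either interferon and either step, where 1.31% and 0.471% of all genes were called for IFN alpha and 1.5% and 1.91% for IFN gamma. In this unblocked fit a 30 min window in which a member was called is thus not shown to differ from its neighbour. The 0-60 min responses were not tested against those of another window. Scd2 with IFN gamma came nearest (-0.58 ± 0.16 at 30-60 against 0-30 min, adjusted p = 0.054), and Ebp gave 1.21 ± 0.43 (adjusted p = 0.29). At an unadjusted p under 0.05 there were 0 and 2 members for IFN alpha and 6 and 3 for IFN gamma. The share of all genes under it is not given here, so these counts are not read as a result about the list. With the array number as a block 4 members were called for IFN gamma at 30-60 against 0-30 min, Ebp higher and Scd2, Scd1 and Acly lower, where 2.32% of all genes were higher and 1.29% lower.

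**Figure D4:**
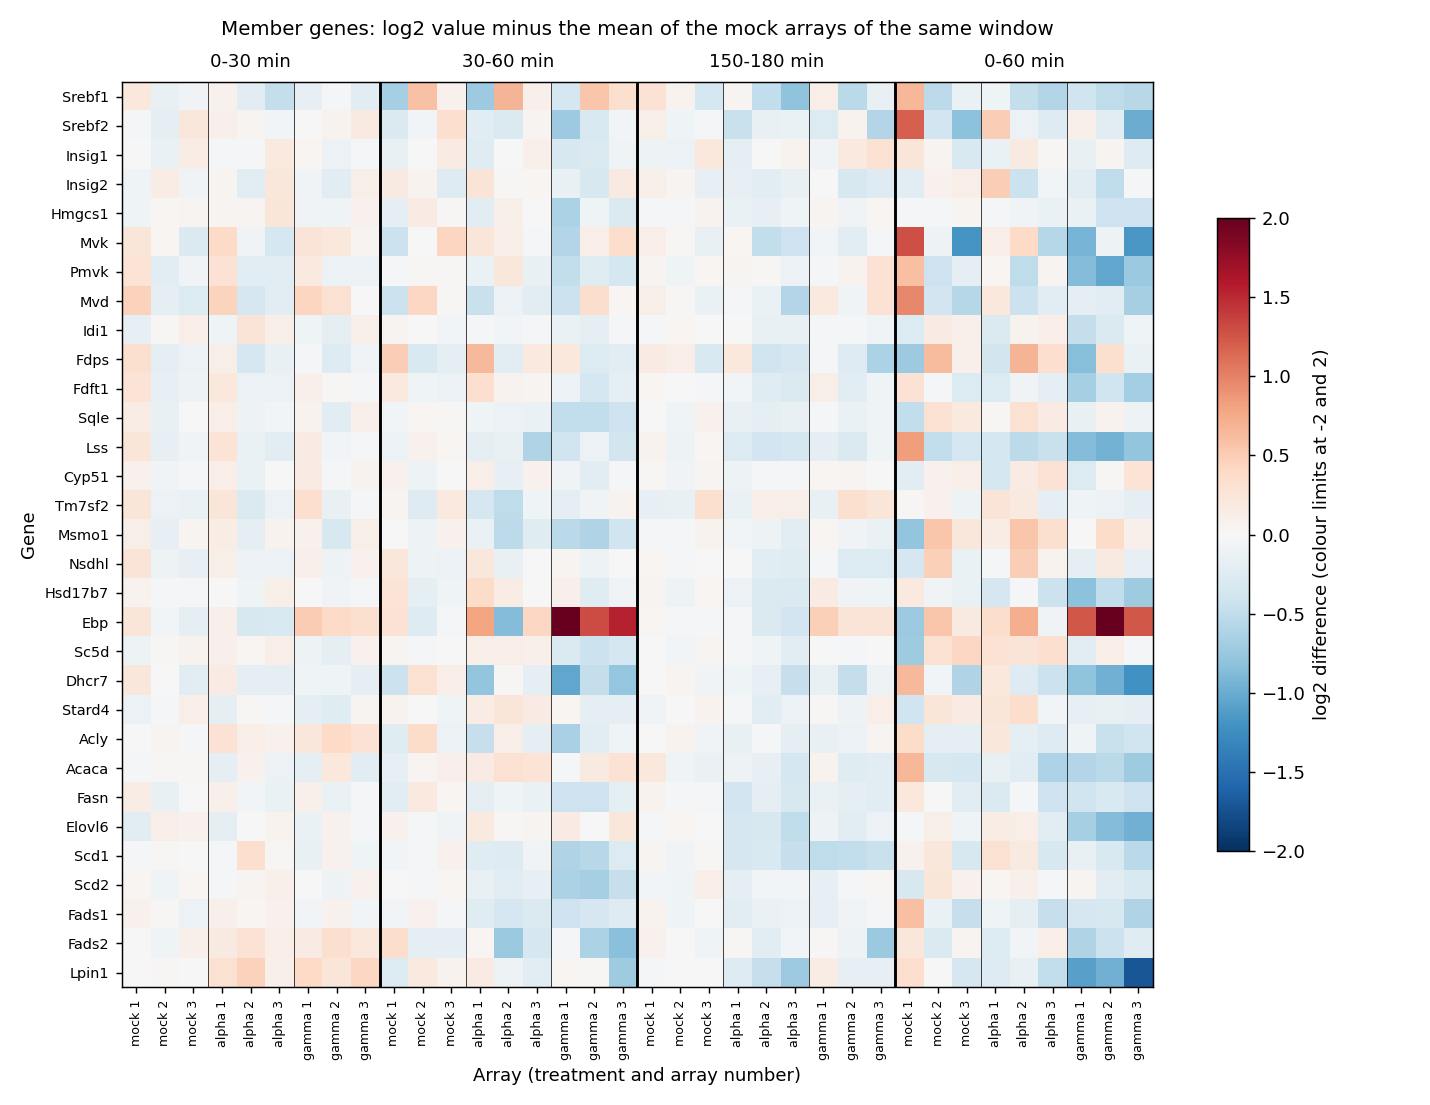
log2 value of each member (rows) in each of the 36 arrays (columns) minus the mean of the 3 mock arrays of the same window; red is higher, blue lower, and colours are limited at -2 and 2. The Ebp row is red in all IFN gamma columns, and mock 0-60 min array 1 differs from its mates in many rows.

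Of 40 further genes of sterol and lipid handling, 24 were tested; 9 were below the filter and 7 had no probe set with a single symbol and were not analysed here. Ch25h, the 25-hydroxylase of cholesterol known as an interferon target in macrophages, was below the filter in all arrays, with a mean of 2.28. In mock cells 16 of the 24 (66.7%) were lower and 2 (8.33%) higher at 30-60 than at 0-30 min, against 51.8% and 9.05% of all genes. Scap, the SREBP escort, fell by 1.75 and Vldlr, a lipoprotein receptor, by 1.78, while Acsl4, an acyl-CoA synthetase, rose by 1.26 and Mylip, the ligase that degrades lipoprotein receptors, by 0.72.

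Npc2, which carries cholesterol out of lysosomes, rose with IFN alpha. At 30-60 min it read 10.26, 10.23 and 10.19 with mock, 11.47, 11.63 and 11.58 with IFN alpha, and 10.18, 10.14 and 10.20 with IFN gamma. Only the IFN alpha arrays were apart, at 1.33 ± 0.16 above mock (adjusted p = 3.4e-07). It was also higher with IFN alpha at 150-180 min (0.96, adjusted p = 8.6e-05) and over 0-60 min (1.02, adjusted p = 6.6e-05, and 0.94 without mock array 1, adjusted p = 0.00081). In these 3 windows it exceeded the IFN gamma level as well, by 1.38, 0.87 and 1.12.

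Other calls among the 24 were scattered. With IFN alpha Dgat1, a triglyceride synthase, fell at 30-60 min (-0.72 ± 0.18, adjusted p = 0.013), and at 150-180 min Gpam, a glycerol phosphate acyltransferase (-0.49, adjusted p = 0.04), and Acss2, an acetyl-CoA synthetase (-0.63, adjusted p = 0.0078), fell. With IFN gamma at 150-180 min Mylip (-0.69 ± 0.17, adjusted p = 0.0091), Acss2 (-0.62, adjusted p = 0.0058) and Abca1, the cholesterol exporter (-1.05 ± 0.32, adjusted p = 0.048), fell. Over 0-60 min Abca1 was called higher with both interferons (1.19 and 1.16), where its mock arrays read 2.58, 2.97 and 4.61, mostly under the filter. Without mock array 1 neither was called (0.79, adjusted p = 0.52, and 0.75, adjusted p = 0.25). Acss2 lay near the filter at 150-180 min, with 4.24 to 4.54 in mock and 3.57 to 3.85 with either interferon, and below it in every 30-60 min array (2.61 to 3.18) and every 0-60 min array (2.82 to 3.30). With the array number as a block the IFN gamma calls over 0-60 min rose from 1 to 7 of 24. All genes went from 3.83% higher and 2.9% lower to 8.59% and 11.8%. Acsl4 (0.80), Dgat1 (0.55), the triglyceride synthase Dgat2 (0.63) and Pgrmc1 (0.38) were higher beside Abca1. Vldlr (-0.67) and the phosphatidate phosphatase Lpin2 (-0.37) were lower. This fit keeps mock array 1, the lowest for Acsl4 (mock 8.28, 10.17 and 9.96, IFN gamma 10.29, 10.44 and 10.09). It was also the lowest for Pgrmc1 (mock 9.25, 10.38 and 10.17, IFN gamma 10.07, 10.46 and 10.41). Dgat2 read 3.37, 3.59 and 4.65 with mock, mostly under the filter.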

How the data were processed

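The members and gene lists were chosen with earlier results of these data known. Deposited were log2 values of 45101 probe sets on 36 arrays; per the submitters' processing notes the authors used GCRMA, whose version and settings are not given in the sources used here. Of these, 34945 probe sets had 1 gene symbol, 932 several and 9160 none, and 64 were controls. The gene symbols are those of the platform annotation.

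Values were used without further scaling. Group means of all 36 arrays were fitted with limma 3.58.1 (R 4.3.3) by lmFit and eBayes with an intensity trend, with 24 residual and 6.83 prior degrees of freedom. The 19 comparisons were contrasts, tested two-sided and adjusted over 9549 genes. The fit was tested on simulated data. Precision is limited by the 3 arrays per group and, near log2 4, by background.

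Array numbers were taken to pair arrays within the first 3 windows, where same-numbered arrays of different treatments deviated together (correlation above 0.1) in 9 of 9 pairs each; at 150-180 min this was 7 of 9, and blocked results there are not relied on.

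Values in every array are given for members called with an interferon against mock and for the up to 6 members of largest difference per mock comparison; genes of the further list are named where called. The arrays of Sc5d, Fads1, Msmo1, Hmgcs1 and Insig1 were added after their values were seen. The main design has no replicate block. Alternatives were no filter or one at log2 6, quantile normalization, all arrays set to a common median, every probe set in the fit, only the compared windows' arrays, no trend, array weights, the replicate block, and leaving out each array. Leaving out mock 0-60 min array 1, alone or with the block, was chosen after seeing the data. Mvd, Lss, Fdft1, Hsd17b7 and Acly are on probe sets whose suffix marks possible cross-hybridisation.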

Additional observations from a re-analysis of the deposited data

Results flagged for a closer look

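Npc2, the lysosomal cholesterol carrier on the further list, responded to IFN alpha differently in successive windows. Its IFN alpha minus mock difference was larger at 30-60 than at 0-30 min by 1.03 ± 0.23 (log2), with an adjusted p of 0.01 from limma's test of the difference of differences over 9549 genes. All 3 IFN alpha arrays at 30-60 min (11.47, 11.63 and 11.58) were above all mock arrays there, while at 0-30 min 11.45, 10.77 and 10.77 overlapped the mock readings of 11.05, 10.55 and 10.51.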

How the results depend on the processing

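Of 510 alternative values of the member differences named with a test, 448 kept their direction and side of the threshold, 57 lost the call, 5 gained it and 0 reversed. Among all 31 members, leaving out mock 0-60 min array 1 turned the sign of 5 for IFN gamma against mock over 0-60 min (Cyp51, Insig1, Msmo1, Mvd and Srebf2; Mvd went from -0.36 to 0.12) and of 17 for IFN alpha, none of them called in either fit. Counts of called members moved more. The share of all genes called in the same fit is given only for the fits described above. A larger count below is therefore not read as a result about the list. For IFN gamma against mock at 30-60 min (4) the count was 2 without the trend, 10 with the replicate block, 13 with array weights and 2 to 8 when 1 array was left out. At 150-180 min (1) it was 0 without a filter, with all probe sets or without the trend, 9 with array weights and 0 to 1 with 1 array left out. At 0-60 min (9) it was 1 with only the arrays of that window, 4 with array weights, 17 with the replicate block, 16 with the block and without mock array 1, and 7 to 13 with 1 array left out. For IFN alpha against mock (0) the count at 150-180 min was 1 after quantile normalization, 2 with the replicate block, 4 with that window's arrays, 10 with array weights and 0 to 1 with 1 array left out; at 30-60 min it was 2 with array weights, and at 0-60 min 0 to 2 with 1 array left out. For IFN alpha against IFN gamma the count was 1 with array weights at 0-30 min; at 30-60 min (2) 1 without the trend, 7 with the replicate block, 10 with array weights and 1 to 4 with 1 array left out; at 150-180 min (0) 1 with that window's arrays and 3 with array weights; and at 0-60 min (5) 0 with that window's arrays, 11 with the replicate block, 22 with the block and without mock array 1, and 2 to 10 with 1 array left out. Mock at 150-180 against 0-30 min (2) gave 1 without a filter, 8 with the arrays of those windows, 15 with array weights and 0 to 4 with 1 array left out. Among changes of response (0), IFN gamma at 30-60 against 0-30 min gave 1 with the filter at log2 6 or those windows' arrays, 4 with the replicate block, 8 with array weights and 0 to 1 with 1 array left out. At 150-180 against 30-60 min it gave 1 with those windows' arrays, 3 with the replicate block, 11 with array weights and 0 to 1 with 1 array left out; IFN alpha gave 1 with the replicate block and 7 with array weights there, and 1 with array weights at 30-60 against 0-30 min. The array weights stopped before reaching their convergence tolerance. The causes were not tested. Both larger mock counts (28 and 28) stayed within 27 to 30.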
